A study of Mus musculus with 6 samples.

Results

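Messenger RNA levels of 10 genes of iron storage, uptake, export and sensing were followed in mouse leukemia cells after inhibition of the histone demethylase LSD1. The genes were chosen by name (Fth1, Ftl1, Ncoa4, Tfrc, Slc11a2, Slc11a1, Hmox1, Slc40a1, Aco1 and Ireb2), and all 10 had a row among the 15035 rows of the RNA-seq table. The cells were bone marrow cells of BALB/c background that had received mutant forms of the receptor CSF3R and of the transcription factor CEBPA by retrovirus, and both groups carried them. In 3 libraries the cells had been given 4 nM GSK-LSD1, an irreversible LSD1 inhibitor, for 48 h, and in the other 3 libraries they had been given DMSO, its solvent, for 48 h. The cells were cultured in medium with serum, the labels name neither clones nor donor animals, and they do not say that replicates were separate cultures; the p-values therefore reflect only how far these libraries spread, which may be technical.

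Cells take up iron mainly as transferrin bound to the transferrin receptor, move it out of the endosome through a divalent metal transporter, store it in ferritin shells of heavy and light subunits, and export it through ferroportin. When cytosolic iron is low, the iron regulatory proteins bind a short RNA hairpin, the iron-responsive element. A bound element upstream of the coding part blocks translation, as in ferritin and ferroportin, and elements downstream protect the transcript from decay, as in the transferrin receptor. Myeloid cells handle iron both for their own growth and, once they become macrophages, to recycle heme and to withhold metal from microbes.

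The hairpin itself is shown because it divides the members by the side of the transcript on which they carry it. Mouse GENCODE M21 coding transcripts (GRCm38) were searched on the sense strand for the loop CAGTGN with 5 paired bases on each side (G-T pairs allowed) and an unpaired C just before the left arm. A match was present in 0.959% of 58797 coding transcripts, and 1.34% of 21877 coding genes had a transcript with one. Fth1, Ftl1 and Slc40a1 each had 1 match upstream of the coding part, at bases 99 to 104 of Fth1-201, 90 to 95 of Ftl1-201 and 102 to 107 of Slc40a1-201 for the loop. Tfrc-201 had 4 matches, all downstream of the coding part. Matches were present in 4 of 5 coding transcripts of Fth1, 1 of 2 of Ftl1, 1 of 4 of Slc40a1 and 1 of 3 of Tfrc. A search added after the first allowed 1 unpaired base on the far side of the stem. It was met by 2.49% of coding transcripts and by 3.44% of coding genes. Slc11a2-205 had 1 such match just after its coding part, and the other 5 Slc11a2 coding transcripts had none. Capitals mark the loop, each sequence is the transcript strand, and a match is a description of the letters, not a measured binding site.
Fth1, chr19:9982732-9982759, plus strand: ttcctgcttcaaCAGTGCttgaacggaa
Ftl1, chr7:45459780-45459807, minus strand: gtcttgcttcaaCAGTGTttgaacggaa
Slc40a1, chr1:45925466-45925493, minus strand: caacttcagctaCAGTGTtagctaagtt
Tfrc match 1, chr16:32631219-32631246, plus strand: aattatcggaagCAGTGCcttccataat
Tfrc match 2, chr16:32631598-32631625, plus strand: cattatcgggagCAGTGTcttccataat
Tfrc match 3, chr16:32631663-32631690, plus strand: ctatatcggagaCAGTGAtctccatatg
Tfrc match 4, chr16:32631710-32631737, plus strand: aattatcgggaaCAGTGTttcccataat
Slc11a2, chr15:100395153-100395181, minus strand: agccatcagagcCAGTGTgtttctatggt

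The coding transcripts of Ncoa4, Slc11a1, Hmox1, Aco1 and Ireb2 held neither form of the hairpin. RNA-seq counts transcripts, so neither binding of the iron regulatory proteins nor ferritin or receptor protein was measured here.

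**Figure D1:**
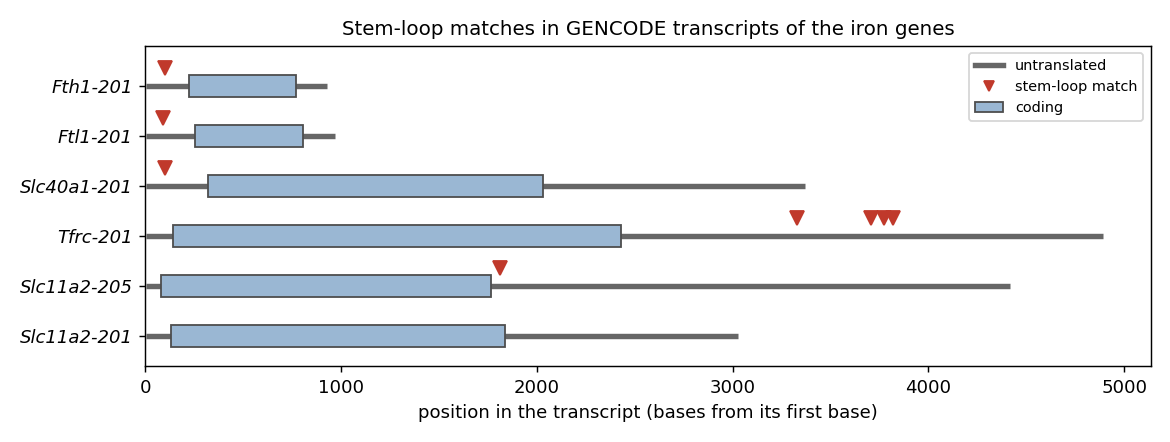
Position of the stem-loop matches (red triangles) along 6 GENCODE transcripts, in bases from the first base; thick boxes are coding parts and grey lines untranslated parts. The matches of Fth1, Ftl1 and Slc40a1 lie before the coding part, those of Tfrc (4) and Slc11a2-205 (1) lie after it, and Slc11a2-201 has none.

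The libraries held 9572638 to 10199533 reads, taking the smallest value of each library as 1 read, and 13879 to 14106 genes were above 0. Of 9 myeloid progenitor and granulocyte markers, all tested, 4 were higher with GSK-LSD1 and 4 were lower. Of all tested genes, 20.6% were called higher and 20.5% lower. Kit, at 28.1 ± 13.4 scaled counts with GSK-LSD1 and 29.6 ± 4.82 with DMSO, did not pass. Mpo was higher, at 8952 ± 164 with GSK-LSD1 and 7390.3 ± 377 with DMSO, and so was Cd34, at 1685 ± 4.38 and 299 ± 28.5. Prtn3 was lower, at 1105 ± 50.7 with GSK-LSD1 and 1755 ± 107 with DMSO, and so was Ctsg, at 685 ± 65.7 and 946 ± 49.9 (SD, n = 3 each). Rows for the globin genes Hba-a1, Hba-a2, Hbb-bs and Hbb-bt, for C1qa, C1qb, C1qc, Mertk, Spic, Vcam1 and Timd4 of tissue macrophages, and for the T and B cell genes Cd3e, Cd4, Cd8a and Pax5 were not among those analysed. The T and B cell genes Cd3g, Cd79a and Cd79b had rows but were too low to be tested. Their read totals with GSK-LSD1 and DMSO were 30 and 12 (Cd3g), 6 and 0 (Cd79a) and 4 and 8 (Cd79b). The groups did not overlap for Cd3g. Of stromal and endothelial genes, Pecam1 was higher, at 4379 ± 56.5 scaled counts with GSK-LSD1 and 3719 ± 249 with DMSO. Col1a1 was also higher, but not without a filter on low values (limma adjusted p = 0.0636). All values below are scaled read counts, that is, read counts divided by a factor per library. Genes that reached 10 in 3 or more of the 6 libraries were tested, with limma on log2(value + 1) and Benjamini-Hochberg adjustment over all 11588 genes tested, at a threshold of 0.05.

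After GSK-LSD1, transcripts of both ferritin subunits, of heme oxygenase and of the phagosomal metal transporter were higher, and those of the divalent metal transporter Slc11a2 were lower. Fth1 was 1.70-fold, Ftl1 1.33-fold, Hmox1 1.68-fold and Slc11a1 9.95-fold the DMSO level, and Slc11a2 was 1.57-fold lower. Ncoa4 was 1.10-fold the DMSO level, Tfrc and Aco1 were 1.10-fold and 1.12-fold lower, and the calls of these 3 genes were lost in some alternative fits. Of 9 tested members 5 rose, 3 fell and 1 did not pass, beside 20.6% of all tested genes called higher and 20.5% called lower (41.1% in all, and 41.3% with edgeR). The number that fell was 1 without GSK-LSD1 replicate 2 and without the mean-variance trend. In 8 of the 9 the groups did not overlap, beside 49.5% of all tested genes. Slc40a1 was below the filter, and Slc11a1 passed it only through the GSK-LSD1 libraries, so these counts do not cover every member on equal terms. The median log2 fold change of the 9 was 0.13, and that of all tested genes -0.01.

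**Figure D2:**
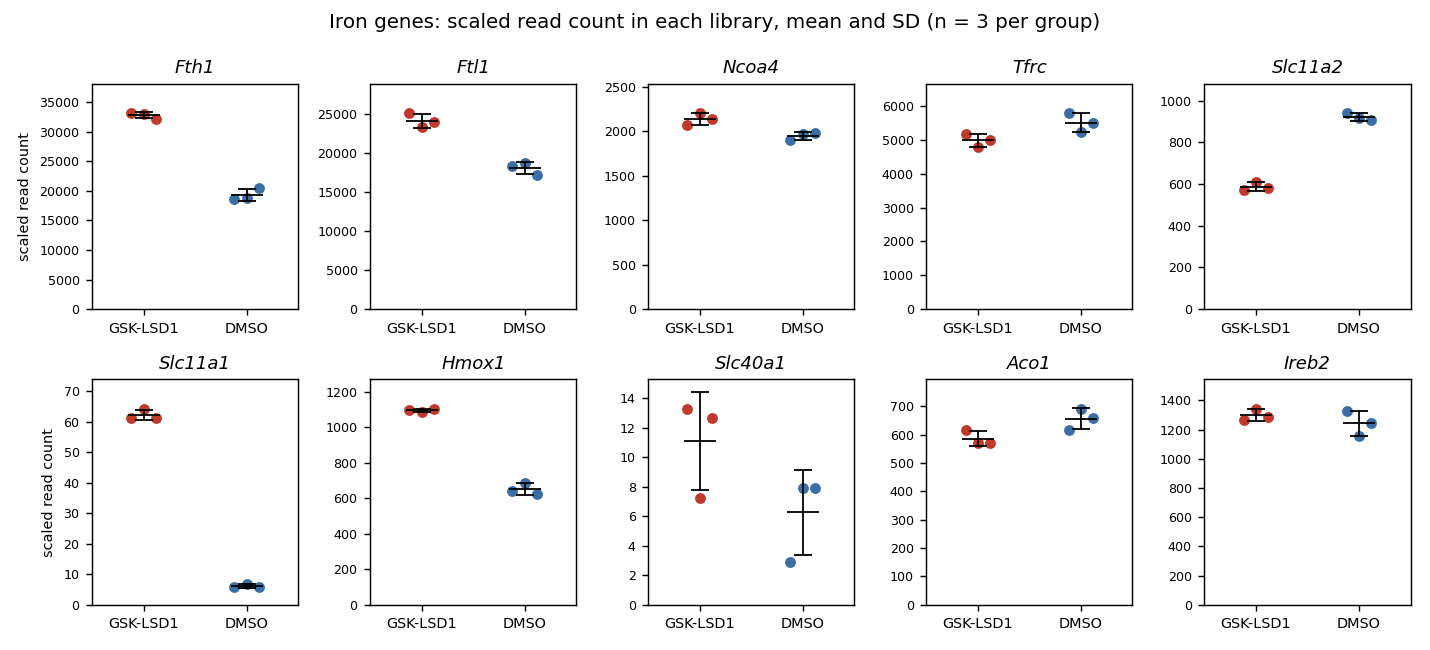
Scaled read count of each iron gene in every library (points), with mean and SD (black), GSK-LSD1 left and DMSO right; each axis starts at 0. The points of the groups are apart for Fth1, Ftl1, Hmox1, Slc11a1 and Slc11a2, lie close together for Ncoa4, Tfrc and Aco1, and overlap for Slc40a1 and Ireb2.

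Ferritin was the most abundant product among the members. Fth1 (ENSMUSG00000024661.7, chromosome 19, 9980598 to 9985098), the heavy subunit that oxidises iron for storage, had 33135, 33047 and 32162 scaled counts in the GSK-LSD1 libraries, against 18533, 18743 and 20429.6 in the DMSO libraries. Every GSK-LSD1 library was above every DMSO library by more than the range within either group. The log2 fold change was 0.77 with a 95% interval of 0.68 to 0.86 (limma adjusted p = 3.04e-16). Ftl1 (ENSMUSG00000050708.16, chromosome 7, 45457944 to 45459884), the light subunit that promotes core formation, had 25081, 23237 and 23913 scaled counts with GSK-LSD1, against 18317, 18711 and 17186 with DMSO. The groups were again apart, with a log2 fold change of 0.41 (0.32 to 0.51, limma adjusted p = 2.69e-09). By mean value Fth1 ranked 13th and Ftl1 20th of all rows.

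Fth1 and Ftl1 together took 0.589%, 0.568% and 0.567% of the total scaled count with GSK-LSD1, against 0.370%, 0.374% and 0.372% with DMSO. The share was thus 1.55-fold the DMSO share, and it hardly varied within a group. The ratio of Fth1 to Ftl1 counts was 1.32, 1.42 and 1.34 with GSK-LSD1, against 1.01, 1.00 and 1.19 with DMSO, with DMSO replicate 3 nearest to the treated libraries. The ratio is not a ratio of molecules, because the length of the Fth1 transcripts in use is not known. Per kilobase of all merged coding-transcript exons, Ftl1 was above Fth1, at 24873 against 21040.4 with GSK-LSD1 and 18668 against 12346 with DMSO. Per kilobase of the first-numbered transcript (929 bases for Fth1 and 968 for Ftl1) Fth1 was above Ftl1, at 35286 against 24873 with GSK-LSD1 and 20705 against 18668 with DMSO. Reads of ferritin genes can be shared with related copies in the genome. Annotated under ferritin pseudogene names are Fth-ps2, Fth-ps3, Ftl1-ps1, Ftl1-ps2 and Ftl2-ps, and none of these 5 had a row. Copies under other names were not searched for. Exons of Ftl1 also overlap Gm10252 on the other strand and the miRNA gene model Gm22133 on the same strand (by at most 355 and 109 bases). Both levels are therefore uncertain by an amount that the values do not show.

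**Figure D3:**
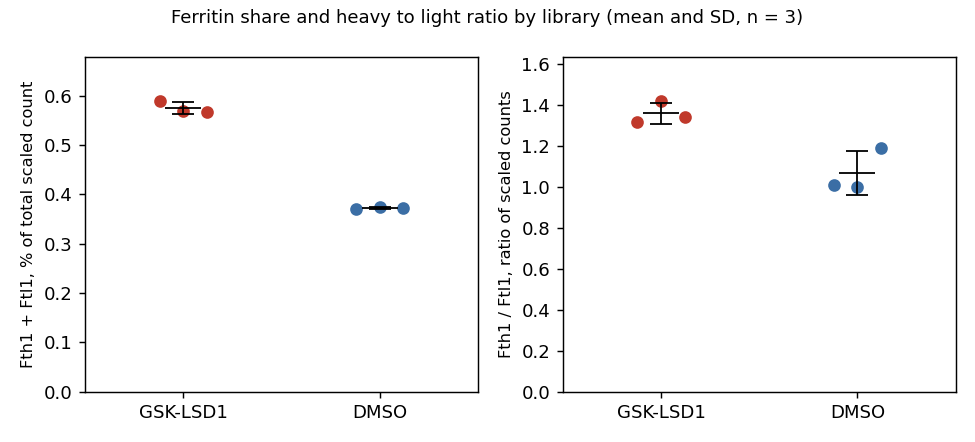
Left, share of the total scaled count held by Fth1 and Ftl1 together in each library (%); right, ratio of Fth1 to Ftl1 scaled counts; points are libraries, black marks mean and SD, n = 3 per group. The share averages 0.575% with GSK-LSD1 and 0.372% with DMSO, and the ratio 1.36 and 1.07.

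Ncoa4 (ENSMUSG00000056234.15, chromosome 14, 32159865 to 32179855) encodes the receptor that carries ferritin to the lysosome, where its iron is released. It had 2069, 2202 and 2134 scaled counts with GSK-LSD1, against 1899, 1964 and 1982 with DMSO. The lowest treated library stood just above the highest DMSO library. The log2 fold change was 0.13 (95% interval 0.04 to 0.23, limma adjusted p = 0.0228). The call was lost without GSK-LSD1 replicate 2 (adjusted p = 0.126), without GSK-LSD1 replicate 3 (0.0729), without DMSO replicate 1 (0.0712) and without the mean-variance trend (0.0936).

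On the uptake side the 2 steps of the transferrin route differed in size. Tfrc (ENSMUSG00000022797.16, chromosome 16, 32608920 to 32632794), the transferrin receptor, had 5163, 4795 and 5008 scaled counts with GSK-LSD1, against 5795, 5239 and 5491 with DMSO. The highest treated library and the lowest DMSO library differed by less than the range within either group. The log2 fold change was -0.14 (95% interval -0.23 to -0.05, limma adjusted p = 0.0111). It missed the threshold without GSK-LSD1 replicate 2 (adjusted p = 0.101), without DMSO replicate 1 (0.0704), with quantile scaling (0.0636) and without the trend (0.121). The ferritin sum was 11.4 ± 0.292 times the Tfrc count with GSK-LSD1 and 6.79 ± 0.399 times with DMSO (SD, n = 3 each).

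Slc11a2 (ENSMUSG00000023030.16, chromosome 15, 100387898 to 100425072), also called DMT1, passes ferrous iron from the endosome to the cytosol. It had 573, 612 and 580.1 scaled counts with GSK-LSD1, against 941, 916 and 908 with DMSO. The groups lay far apart, with a log2 fold change of -0.65 (95% interval -0.76 to -0.53, limma adjusted p = 1.83e-11). Counts per gene do not separate the transcript with the downstream hairpin, Slc11a2-205, from Slc11a2-201, which lacks it. Exons of Slc11a2 overlap the gene model Gm5475 on the other strand by at most 94 bases, and whether reads were counted by strand is not stated in the labels.

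Erythroid cells, the main users of transferrin iron, were checked beside these values. Of 12 erythroid markers listed, 8 had a row and were tested. Beside 20.5% of all tested genes called lower, all 8 markers were lower with GSK-LSD1. Their summed value was 2109 to 2238 with GSK-LSD1 and 2889.7 to 2929 with DMSO, mostly from Tfr2 and Gata1 (Tfr2 and Alas2 also stand in iron lists below). The band 3 gene Slc4a1, a defining marker, was low, with 1.32 ± 1.48 scaled counts with GSK-LSD1 and 49.8 ± 8.82 with DMSO (SD, n = 3 each). In bulk libraries fewer cells of a type and less RNA per cell cannot be told apart, and the part of these markers in the values of Tfrc and Slc11a2 was not tested.

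Slc11a1 (ENSMUSG00000026177.11, chromosome 1, 74375195 to 74386062), also called NRAMP1, pumps divalent metal across the phagosome membrane of macrophages and neutrophils. BALB/c mice carry a well-known loss-of-function allele of it, so its transcript level says nothing of transport here. It had 61.2, 64.2 and 61.3 scaled counts with GSK-LSD1, against 5.86, 6.94 and 5.97 with DMSO. The DMSO libraries were all below 10, and in reads the totals were 185 over the GSK-LSD1 libraries and 19 over the DMSO libraries. The log2 fold change was 3.13 (95% interval 2.60 to 3.65, limma adjusted p = 2.10e-12), and 0.354% of all tested genes changed by as much or more. The level remained low: 26.8 per kilobase of exon with GSK-LSD1 and 2.69 with DMSO, far under the ferritin genes.

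Hmox1 (ENSMUSG00000005413.8, chromosome 8, 75093621 to 75100589), heme oxygenase 1, opens the heme ring and frees its iron. It had 1099, 1087 and 1103 scaled counts with GSK-LSD1, against 643, 687 and 626 with DMSO. The treated libraries lay close together and all above the DMSO libraries. The log2 fold change was 0.75 (95% interval 0.64 to 0.86, limma adjusted p = 1.73e-13).

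Macrophage markers were set beside Slc11a1 and Hmox1. Of 12 listed, 5 had a row and 4 were tested. Beside 20.6% of all tested genes called higher and 20.5% called lower, 3 of the markers rose and 1 did not pass. Their summed value was 481 to 495 with GSK-LSD1 and 249 to 303 with DMSO. Adgre1, which encodes F4/80, had 158 ± 4.40 scaled counts with GSK-LSD1 and 17.4 ± 2.83 with DMSO, and Csf1r 45 ± 12.2 and 11.8 ± 4.17 (SD, n = 3 each). The marker that did not pass, Fcgr1, was the most abundant of the list with DMSO, at 153 ± 12.9 with GSK-LSD1 and 181 ± 29.5 with DMSO, a log2 fold change of -0.24 (limma adjusted p = 0.0886). Granulocyte markers moved both ways. Csf3r and Cebpe were 4.09-fold and 1.54-fold the DMSO level, and Elane and Ms4a3 were 1.9-fold and 2.22-fold lower. A mutant form of CSF3R had been given to these cells by retrovirus. The part of any of these markers in the rise of Slc11a1 and Hmox1 was not tested.

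Slc40a1 (ENSMUSG00000025993.10, chromosome 1, 45908068 to 45926523) encodes ferroportin, the iron exporter that is abundant in macrophages that recycle red cells. It had 13.3, 7.25 and 12.7 scaled counts with GSK-LSD1, against 2.93, 7.93 and 7.96 with DMSO, and GSK-LSD1 replicate 2 lay within the DMSO range. In reads the totals were 33 and 19 over 3 libraries each. It was not tested under the filter. Without the filter its log2 fold change was 0.78, with a 95% interval from -0.03 to 1.60 (limma adjusted p = 0.140), so it did not pass the threshold.

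The sensors showed little movement. Aco1 (ENSMUSG00000028405.9, chromosome 4, 40143081 to 40198338) encodes iron regulatory protein 1, which is cytosolic aconitase when it holds an iron-sulphur cluster. It had 616, 570.3 and 569 scaled counts with GSK-LSD1, against 618, 691 and 660.0 with DMSO. GSK-LSD1 replicate 1 and DMSO replicate 1 were nearly equal. The log2 fold change was -0.16 (95% interval -0.29 to -0.04, limma adjusted p = 0.0356). The call was lost in 4 of 6 fits that left out a library: GSK-LSD1 replicate 2 (adjusted p = 0.119), GSK-LSD1 replicate 3 (0.131), DMSO replicate 2 (0.158) and DMSO replicate 3 (0.0611). It was also lost without the trend (0.100) and with DESeq2 (0.0942). Ireb2 (ENSMUSG00000032293.8, chromosome 9, 54863789 to 54912530), iron regulatory protein 2, is controlled mainly by breakdown of the protein. It had 1266, 1342 and 1287 scaled counts with GSK-LSD1, against 1328, 1157 and 1246 with DMSO, and the groups overlapped. Its log2 fold change of 0.06 had a 95% interval of -0.05 to 0.17 (limma adjusted p = 0.364).

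**Figure D4:**
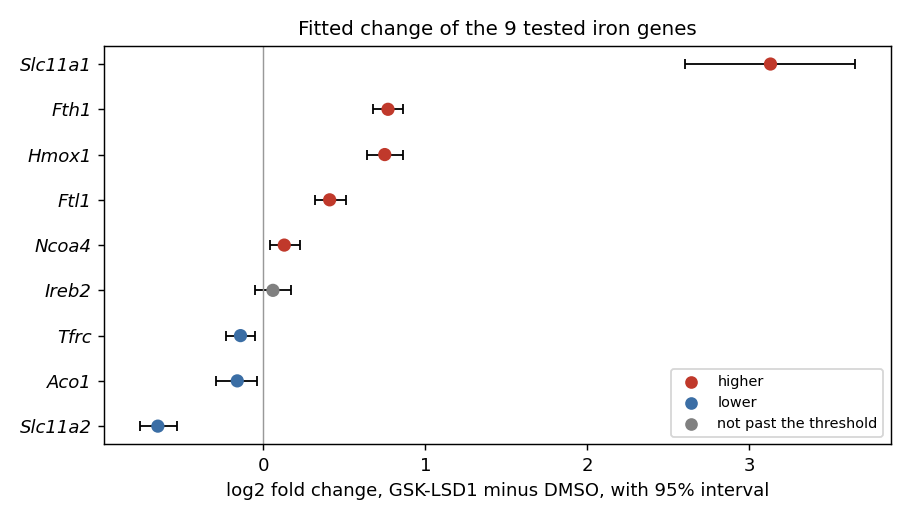
Fitted log2 fold change, GSK-LSD1 minus DMSO, of the 9 tested iron genes, with 95% intervals from limma (n = 3 libraries per group). Slc11a1 stands at 3.13, Fth1 and Hmox1 at 0.77 and 0.75, and Slc11a2 at -0.65; the interval of Ireb2 includes 0.

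Per kilobase of merged exons, the members fell in the same rough order in both groups. With GSK-LSD1 the scaled count per kilobase was highest for Ftl1 and Fth1, then Tfrc (960.2 ± 35.6), Hmox1 (699 ± 5.27), Ncoa4 (521 ± 16.2), Ireb2 (225 ± 6.85), Aco1 (153 ± 6.99), Slc11a2 (103 ± 3.58), Slc11a1 and Slc40a1 (3.29 ± 0.982). With DMSO it was 1060.0 ± 53.5 for Tfrc, 475 ± 10.6 for Ncoa4, 416 ± 19.9 for Hmox1, 216 ± 14.8 for Ireb2, 171 ± 9.50 for Aco1 and 161 ± 3.07 for Slc11a2 (SD, n = 3 each). Hmox1 was thus above Ncoa4 with GSK-LSD1 and below it with DMSO. Aco1 and Slc11a2 with DMSO, and Slc11a1 (2.69 ± 0.255) and Slc40a1 (1.86 ± 0.861) with DMSO, differed by less than the sum of their SDs. The place of Slc11a2 depends on its transcript: per kilobase of Slc11a2-201 it was 194 with GSK-LSD1 and 305 with DMSO.

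The rest of the iron route was read from lists of genes around each step, whose counts stand beside 20.6% of all tested genes called higher, 20.5% called lower and a median log2 fold change of -0.01. Of 10 tested genes of iron uptake and endosomal release, 5 rose, 3 fell and 2 did not pass, with a median log2 fold change of 0.38. Those that rose included a reductase and a receptor gene, as did those that fell. Steap4, a metalloreductase, had 135 ± 8.62 scaled counts with GSK-LSD1 and 21 ± 4.86 with DMSO, and Lcn2, a lipocalin that binds bacterial iron carriers, 809.7 ± 27.9 and 363 ± 38.4 (SD, n = 3 each). Hfe, which binds the transferrin receptor, rose 2.04-fold. Trf, transferrin itself, rose 1.53-fold to 4476 ± 119 with GSK-LSD1, against 2916 ± 107 with DMSO. Those that fell were a reductase, an importer and a receptor: Steap3, the endosomal iron reductase, by 0.42 on the log2 scale, Slc39a14, an importer of free iron, by 0.33, and Tfr2, the second transferrin receptor, by 0.30. The call of Slc39a14 was lost without DMSO replicate 1, and that of Slc22a17, a lipocalin 2 receptor gene among those that rose and named after its values were seen, in 5 of 6 fits that left out a library (all but DMSO replicate 2).

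Of 7 tested genes of heme and haemoglobin scavenging, 4 rose, none fell and 3 did not pass (median log2 fold change 0.47). Lrp1, a receptor for hemopexin-bound heme among other ligands, had 166 ± 5.31 scaled counts with GSK-LSD1 and 33.6 ± 0.335 with DMSO (SD, n = 3 each). Hp, haptoglobin, rose 2.30-fold. Blvrb, a reductase of biliverdin and flavins, rose 1.57-fold, and Slc48a1, which moves heme out of endosomes and lysosomes, 1.39-fold. The haemoglobin receptor gene Cd163 was low, at 5.12 ± 3.59 and 6.56 ± 2.94, and was not tested.

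Among 10 tested genes for chaperones, export partners and sensors, 6 rose, 2 fell and 2 did not pass (median 0.27). Pcbp1 and Pcbp2, whose proteins hand iron to ferritin, fell by 0.21 and 0.18 on the log2 scale while the ferritin genes rose. Epas1, which encodes HIF-2 alpha and has an upstream hairpin of the form with 1 unpaired base, had 202 ± 15.6 scaled counts with GSK-LSD1 and 48.7 ± 6.16 with DMSO (SD, n = 3 each). Bmpr1a, a BMP receptor, rose 4.01-fold, Hif1a 1.48-fold and Herc2, a ubiquitin ligase that acts on NCOA4 protein, 1.27-fold. Cp, the ferroxidase ceruloplasmin, was at 28.7 in both groups.

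Genes of mitochondrial iron and of iron-sulphur cluster assembly moved by small amounts. Of 22 tested, none rose, 9 fell and 13 did not pass (median -0.12). Glrx5, a glutaredoxin that passes clusters on, fell by 0.30 on the log2 scale, Isca2 by 0.30 and Ciapin1, a factor of the cytosolic machinery, by 0.29. The mitochondrial iron importer Slc25a37, named after its value was seen, was 643 ± 59.5 with GSK-LSD1 and 634 ± 25.0 with DMSO. The calls of Lyrm4, Isca1, Abcb8, Hspa9 and Fdxr were each lost in at least 1 fit that left out a library, and every such fit but the one without DMSO replicate 1 lost at least 1 of them.

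Hmox1 and both ferritin genes are known targets of the activator NRF2 and the heme-sensing repressor BACH1, so that group was listed too. Of 17 tested, 9 rose, 4 fell and 4 did not pass (median 0.14). Gclc, the catalytic subunit of glutathione synthesis, rose 2.05-fold, to 2342 ± 94.6 with GSK-LSD1 against 1144 ± 25.9 with DMSO. Gsr, glutathione reductase, rose 1.48-fold, Nqo1 1.44-fold and the sulfiredoxin gene Srxn1 1.33-fold. Bach1, named after its value was seen, rose 1.28-fold, and Nfe2l2, which encodes NRF2 and was likewise named afterwards, was 1520.4 ± 9.33 and 1531 ± 56.8. Those that fell were Maff (-0.94), Mafk (-0.21), Keap1 (-0.16) and Txn1 (-0.15), given as log2 fold changes, and the number that fell was 1 without GSK-LSD1 replicate 2, without DMSO replicate 2 or without the trend, and 2 without GSK-LSD1 replicate 3 or with DESeq2. The core of the antioxidant response element that NRF2 binds (TGAC, any 3 bases, then GC), read on both strands, was present in 12.4% of 32851 RefSeq promoter windows (GRCm38.p6, 250 bases before to 50 after a start). It was present in 1 of 11 windows of the 7 members with an entry, a window of Ncoa4. Hmox1, Slc11a2 and Slc40a1 had no window, and sequence outside the windows was not searched. The search therefore cannot show that a member lacks the element.

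Of 6 further genes listed for an iron-responsive element, 2 rose, 1 fell and 3 did not pass (median -0.01). Epas1 is given above, and Cdc42bpa rose 1.27-fold. Alas2, the first enzyme of heme synthesis in red cells, had 5.74 ± 1.31 scaled counts with GSK-LSD1 and 41.8 ± 1.54 with DMSO (SD, n = 3 each).

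**Figure D5:**
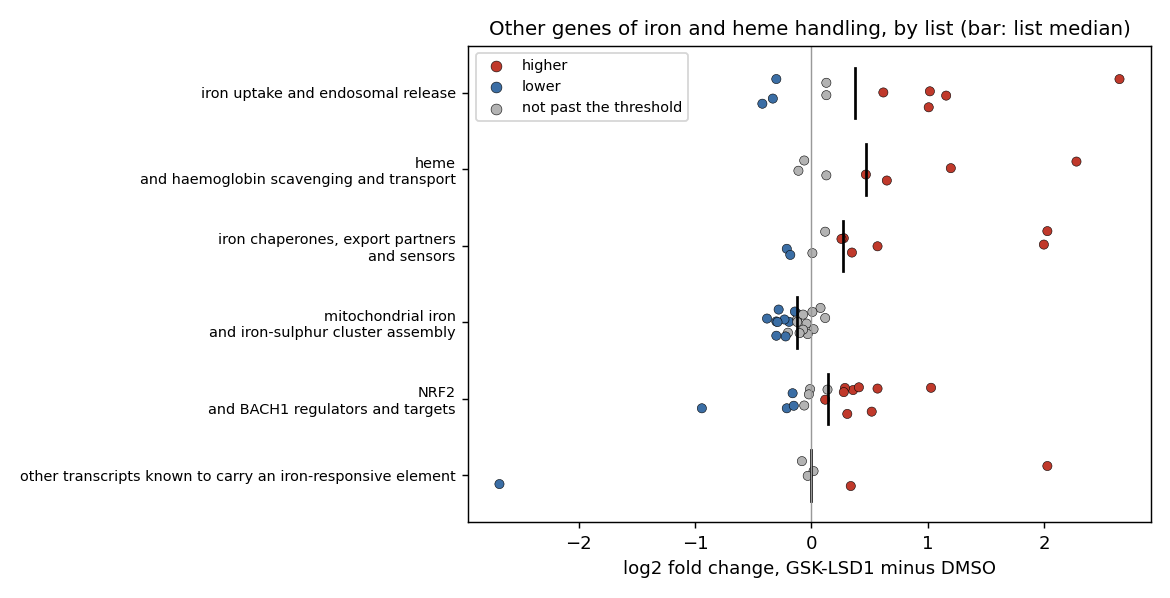
Log2 fold change, GSK-LSD1 minus DMSO, of each tested gene in 6 lists of iron and heme handling (points; red higher, blue lower, grey not past the threshold), with the list median as a black bar. Medians run from -0.12 for the mitochondrial and cluster assembly list to 0.47 for heme and haemoglobin scavenging.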

How the data were processed

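The deposited table holds 1 normalised signal per gene symbol and library, which from the values are gene read counts divided by a factor per library: all values above 0 were whole multiples of the library's step within 0.01. The submitters' processing notes name the tools STAR and DESeq2 with the genome builds GRCm38 and mm10, without version or role; the counter, annotation, strand setting and gene filter are not stated there or in the labels. Spreadsheet dates replaced 22 gene symbols.

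Genes with a value of at least 10 in at least 3 of 6 libraries were tested (11588 kept, 3447 left out) by limma 3.58.1 (R 4.3.3; two-sided, intensity trend, Benjamini-Hochberg adjustment) after the transform log2(value + 1). Fold changes from limma are on that scale and understate low genes; n-fold values are ratios of group means. Intervals are 95% intervals of the fit. Alternatives included edgeR 4.0.16 and DESeq2 1.42.0 on the recovered reads. The fit was also run on simulated counts, with far fewer changed genes than were called here and the same extra spread for every gene. That run therefore does not give the error rate of the fit in these data. Libraries of a group differed beyond sampling noise (chi-square per degree of freedom 1.57 to 3.51) and were counted separately.

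The members and lists were chosen with earlier results of these data known. Besides all members, up to 4 genes per direction and list with a mean of at least 20 were named, those past the threshold with the largest log2 fold change; some listed genes are counted but not reported here by name. Coordinates are from GENCODE M21 (GRCm38).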

Additional observations from a re-analysis of the deposited data

How the results depend on the processing

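In 16 alternative fits, 6 members stayed on the same side of the threshold wherever they were tested: Fth1, Ftl1, Slc11a2, Slc11a1 and Hmox1 past it and Ireb2 not. Slc11a1 has no value at a mean of at least 50, and Slc40a1 was tested only without the filter. The log2 fold changes of Fth1, Hmox1 and Slc11a2 ranged from 0.74 to 0.84, 0.72 to 0.79 and -0.68 to -0.63. Leaving out a library gave 0.11 to 0.15 for Ncoa4, -0.18 to -0.11 for Tfrc and -0.21 to -0.13 for Aco1, 1 to 3 members lower, and 1 to 4 NRF2 and BACH1 genes lower. Quantile scaling gave -0.10 for Tfrc (adjusted p = 0.0636). Without the trend Ncoa4 was 0.13 (0.0936), Tfrc -0.14 (0.121) and Aco1 -0.16 (0.100), with 1 member and 1 NRF2 and BACH1 gene lower. DESeq2 gave -0.17 for Aco1 (0.0942) and 2 NRF2 and BACH1 genes lower. At a mean of at least 50, 0 of the genes listed for an iron-responsive element were lower, since Alas2 is then left out. The cause of the other losses was not tested. Genes called higher and lower numbered 2389 and 2373 as reported, 2463 and 2321 with edgeR, 1947 and 1912 with DESeq2, 2001 and 1662 without the trend, and 2104 and 2604 with quantile scaling.

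Same-numbered libraries did not deviate together (correlations -0.03 to -0.01), so the numbers do not pair them. With the replicate block 2345 genes were higher and 2316 lower, the members' calls were unchanged, and of the listed genes Slc22a17 lost its call. Slc40a1 rests on 33 reads with GSK-LSD1 and 19 with DMSO, and its interval is wide.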
